A study of Mus musculus with 8 samples.

Results

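Cubn, Lrp2, Amn, Dab2 and Lrpap1 encode cubilin, megalin, amnionless, the adaptor DAB2 and the receptor-associated protein RAP, which together make, fold and serve 1 endocytic receptor complex. Their transcripts were followed across 4 groups of mouse embryonic stem cells. The genes were chosen by name, 5 of the 43346 gene identifiers listed in each library. They were selected on measured values of these same libraries, since Cubn, Lrp2 and Dab2 had ranked among the largest falls between TRIM71 knockout and wild-type cells. Their knockout against wild-type values are therefore given as a description, with no test. No threshold on a value decided which gene was taken, so there is no member just inside or just outside one.

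The series concerns TRIM71, a protein that binds RNA hairpins, and its effect on Mbnl1, which encodes a splicing regulator. Total RNA was sequenced from stranded libraries of embryonic stem cells of a 129xC57BL/6 background, grown on gelatin in medium with serum and LIF. All 4 groups carried Rosa26Cre-ERT2/BirA-V5, which adds a Cre that tamoxifen switches on and the biotin ligase BirA, and the wild-type group carried nothing else. The knockout group was TRIM71-/-, the mutant group was homozygous for a mutated Mbnl1 3'UTR, and the overexpression group held a stable transfection of MBNL1::T2A::Puromycin. Each group had 2 libraries. The labels do not say whether these came from separate cultures or clones, so p-values reflect no more than library-to-library spread, which may be technical, and a group may be a single clone.

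Library totals ran from 75056306 to 86508533 counts, and all 5 genes passed the filter on low counts, among 18055 genes tested of 27979 with any count. Levels are counts per 1000000 (CPM) after scaling for library composition. As a check of the labels, Trim71 stood at 630 and 628 CPM in wild type and at 101 and 105 CPM in the libraries labelled TRIM71 knockout. Mbnl1 stood at 25.9 and 26.1 CPM in wild-type libraries, 48.8 and 50.9 in knockout ones, 28.6 and 27.4 in the 3'UTR mutant and 193 and 195 in the overexpression libraries. The 8 embryonic stem cell markers listed, Pou5f1 and Nanog among them, summed to 4206 to 4207 CPM in wild type, 5331 to 5353 in knockout libraries, 4770 to 4780 in the mutant and 4972 to 5023 with overexpression.

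Cubilin is a large extracellular receptor with no membrane span of its own. Amnionless anchors it and carries it to the cell surface, and megalin, a giant member of the lipoprotein receptor family, works beside it. DAB2 links the cytoplasmic tail of megalin to clathrin, and RAP escorts newly made receptors of this family through the endoplasmic reticulum. In the embryo the complex is known from primitive and visceral endoderm, where it takes up maternal nutrients, and in the adult from the kidney proximal tubule and, for cubilin and amnionless, from the ileum, where they take up vitamin B12.

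On the GRCm38 build (mm10), both receptor genes lie on the minus strand of chromosome 2: Cubn (ENSMUSG00000026726.10) at chr2:13276338-13491813 and Lrp2 (ENSMUSG00000027070.10) at chr2:69424340-69586065. Amn (ENSMUSG00000021278.6) lies at chr12:111271095-111276426 and Dab2 (ENSMUSG00000022150.12) at chr15:6299788-6440712, both on the plus strand. Lrpap1 (ENSMUSG00000029103.12) lies on the minus strand at chr5:35091501-35105766. Merged exons spanned 14935 bases in Cubn and 16701 in Lrp2, against 1843 in Amn, 7342 in Dab2 and 4116 in Lrpap1. No exon base of the 5 was shared with a gene on the same strand. Cubn shared 368 bases with Gm13270 and Dab2 shared 211 with Gm18888, each on the opposite strand, and reads of such partners can be told apart only where counting used strand.

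The 5 genes matched 6 promoter windows of 300 bases in the RefSeq promoter table (GRCm38.p6), from 250 bases before a start site to 50 after it, because Dab2 has 2 start sites there. Short motifs were searched on both strands. GATAA is the core bound by GATA factors and ATAAAC a core bound by forkhead factors. The GC box was searched as GGGCGG, the CCAAT box by those letters, and the TATA box as TATAAA. The GATA and forkhead cores can overlap by shared letters, as can the forkhead core and the last motif. The windows below are shown because they hold every GATAA and ATAAAC match among the 5 genes, and 1 GC box of Lrp2 stands for the windows without either. Each is read 5′ to 3′ on the gene's own strand, with the match in capitals, and TTATC is the GATA core read on the other strand.
Dab2, upstream start, chr15:6299599-6299627, plus strand: gatttttcttctGATAAcaggaataggag
Dab2, upstream start, chr15:6299791-6299819, plus strand: attctctttggcTTATCtgctgtgcattt
Dab2, downstream start, chr15:6386675-6386703, plus strand: tagttcgagttaATAAACagttaagtttg
Lrpap1, chr5:35105874-35105902, minus strand: aaaataccttggGATAAttgctctttgct
Lrp2, chr2:69586156-69586184, minus strand: gcaaagtgcaggGGGCGGgccgggcagta
The upstream Dab2 window thus held 2 GATAA matches and the Lrpap1 window 1, beside 25.4% of all 32851 promoters in the table with at least 1. ATAAAC was found in the downstream Dab2 window and in 10.4% of all promoters. The GC box was found 5 times in Lrpap1, 2 times in Lrp2 and once in Amn, and in 35.7% of all promoters. Amn also held 1 CCAAT box, found in 37.4% of promoters, and TATAAA, found in 13.6%, was in none of the 6 windows. The Cubn window held none of the 5 motifs and had 44.3% G and C, against 65.0% in Lrp2 and a median of 52.7% over the table. A match describes letters only, and none of these shows a bound site.

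Cubn, the ligand-binding receptor, had 11.6 and 14.8 CPM in wild-type cells, 0.384 and 0.862 in TRIM71-/- cells, 15.7 and 21.3 in Mbnl1 3'UTR mutant cells and 9.36 and 5.61 with Mbnl1 overexpressed. The 2 knockout libraries lay far below the other 6, and no 2 groups overlapped. Group means were 13.2 ± 2.24 CPM for wild type, 0.623 ± 0.338 for the knockout, 18.5 ± 3.97 for the mutant and 7.48 ± 2.65 for overexpression (SD, n = 2 each). In raw counts the knockout libraries held 33 and 71 reads of Cubn, against 919 and 1117 in wild type. The knockout mean was 21.3-fold lower than wild type, with a log2 difference of -4.41 and a standard error of 0.545. The range of that difference when each library was left out in turn and under the other settings tried was -5.10 to -3.93.

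Lrp2, the megalin gene, was more abundant and varied less between libraries of a group. It had 80.2 and 83.8 CPM in wild-type cells, 18.1 and 18.9 in knockout cells, 76.1 and 88.4 in mutant cells and 32.0 and 24.8 with overexpression. The mutant libraries enclosed both wild-type values, the overexpression libraries lay well below them, and the knockout libraries were the lowest. Means were 82.0 ± 2.51, 18.5 ± 0.559, 82.2 ± 8.64 and 28.4 ± 5.05 CPM in the same order (SD, n = 2 each). The knockout was 4.44-fold lower than wild type (log2 difference -2.15, standard error 0.144).

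Amn, the membrane anchor of cubilin, was the least abundant of the 5. It had 0.975 and 1.53 CPM in wild-type cells, 0.303 and 0.376 in knockout cells, 1.18 and 2.11 in mutant cells and 0.903 and 0.599 with overexpression. These rest on 77 and 115 reads in wild type and on 26 and 31 in the knockout, where 3 counts are worth between 0.0347 and 0.0400 CPM depending on the library. Mutant and wild-type libraries overlapped, and the overexpression libraries sat between the wild-type and knockout ones without overlap. The knockout mean was 3.66-fold lower than wild type (log2 difference -1.87, standard error 0.445).

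Dab2, the clathrin adaptor, had 7.15 and 9.55 CPM in wild-type cells, 2.04 and 1.89 in knockout cells, 9.35 and 11.8 in mutant cells and 5.30 and 3.79 with overexpression. The order of the groups was that of Amn, with overlap between mutant and wild type alone. The knockout mean was 4.23-fold lower than wild type (log2 difference -2.08, standard error 0.272).

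Lrpap1, the chaperone gene, was the most abundant and moved least. It had 101 and 97.6 CPM in wild-type cells, 54.3 and 56.7 in knockout cells, 98.5 and 110.3 in mutant cells and 56.4 and 56.3 with overexpression. The knockout libraries enclosed both overexpression values, and all 4 lay below the other 4 libraries. The knockout was 1.79-fold lower than wild type (log2 difference -0.84, standard error 0.0487).

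**Figure D1:**
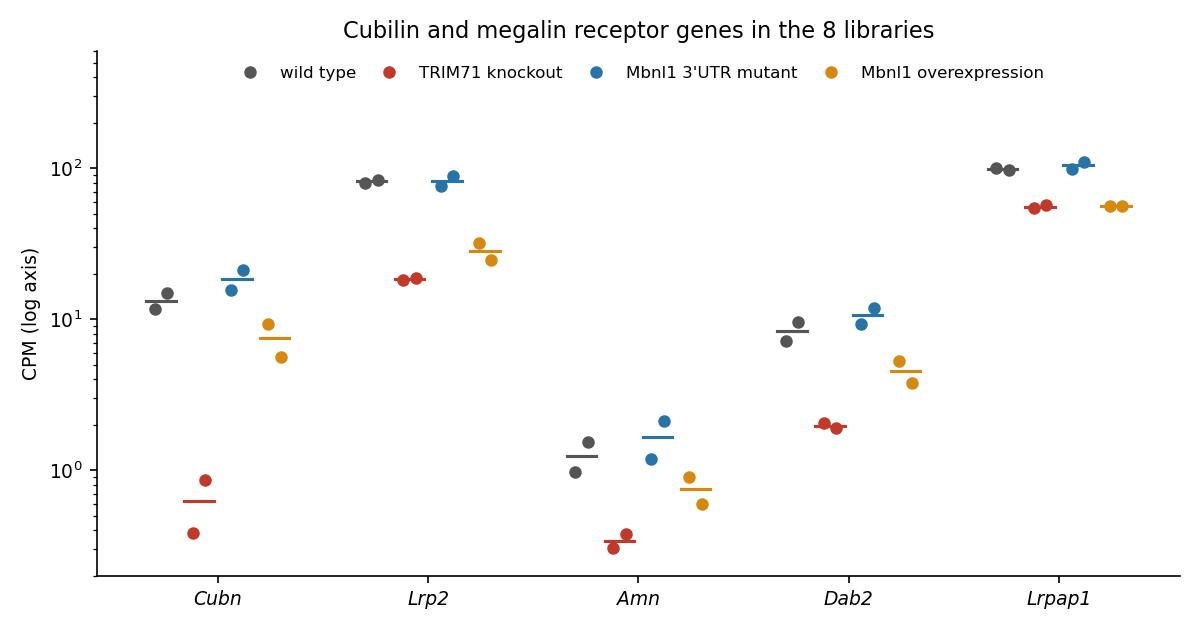
CPM of Cubn, Lrp2, Amn, Dab2 and Lrpap1 on a log axis, with 1 point per library and a bar at the mean of the 2 libraries of each group. The TRIM71 knockout is lowest for every gene, overexpression next, and Lrpap1 at 54.3 to 56.7 CPM shows these 2 groups at 1 level.

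The means of all 5 genes followed the order mutant, wild type, overexpression, knockout. Neighbours in that order overlapped between mutant and wild type for Lrp2, Amn, Dab2 and Lrpap1, and between overexpression and knockout for Lrpap1. None of the 5 overlapped between wild type and overexpression, where the libraries of 76.5% of all genes were apart. Between the knockout and wild type the libraries were apart for 5 of 5 genes, as for 73.3% of all 18055 genes. Of all genes 44.8% were called in that comparison, 20.7% lower and 24.1% higher, and nothing is read from this count because the genes were chosen on it.

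Set per kilobase of exon, Lrpap1 stood highest in wild type at 24.1 CPM per kb, followed by Lrp2 at 4.91, Dab2 at 1.14, Cubn at 0.886 and Amn at 0.678. Cubilin and its anchor were thus of like level in wild type, with a Cubn to Amn ratio of 1.47 and 1.20 in the 2 libraries. That ratio was 1.63 and 1.25 for the mutant libraries and 1.28 and 1.16 with overexpression, but 0.157 and 0.283 in the knockout, where Amn exceeded Cubn. Megalin stood 6.16 and 5.06 times above Cubn per kilobase in wild type and 42.1 and 19.6 times above it in the knockout, beside 4.34 and 3.71 times in mutant cells and 3.05 and 3.96 times with overexpression. The chaperone Lrpap1 stood 5.09 and 4.73 times above Lrp2 in wild type, 12.2 times in both knockout libraries, 5.25 and 5.07 times in the mutant and 7.17 and 9.21 times in overexpression. The Lrp2 to Dab2 ratio did not set the knockout apart, at 3.90 and 4.38 beside 4.94 and 3.86 in wild type and 3.58 and 3.28 in the mutant, and was lowest with overexpression at 2.65 and 2.88. These ratios include the knockout values the genes were chosen on and carry no test.

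In the Mbnl1 3'UTR mutant against wild type, none of the 5 genes passed, where 15.5% of all genes were called, 7.50% lower and 8.02% higher. Tests are edgeR's quasi-likelihood test with Benjamini-Hochberg adjustment over all 18055 genes, called at an adjusted p under 0.05. Cubn was 0.49 higher on the log2 scale (standard error 0.318, interval -0.38 to 1.35, adjusted p = 0.423), and its libraries were apart, with the lowest mutant library at 15.7 CPM and the highest wild-type library at 14.8, as were those of 51.9% of all genes. Amn differed by 0.40 (interval -0.32 to 1.13, adjusted p = 0.468), Dab2 by 0.35 (-0.18 to 0.87, adjusted p = 0.365) and Lrpap1 by 0.07 (-0.03 to 0.18, adjusted p = 0.347). Lrp2 differed by 0.00, with an interval from -0.34 to 0.34 and an adjusted p of 0.989. These are 95% intervals, so a difference of up to 2.55-fold for Cubn lies within the upper bound, while for Lrpap1 the bound is 1.13-fold. Without mutant replicate 1, Amn (0.76, adjusted p = 0.0424) and Lrpap1 (0.15, adjusted p = 0.0268) passed, and without mutant replicate 2 both differences turned just below 0 (-0.07 and -0.01). Lrp2 turned negative without mutant replicate 2 (-0.11) and without wild-type replicate 1 (-0.02), and over all genes the count called dropped from 2802 to 1768 without wild-type replicate 1.

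In Mbnl1 overexpression against wild type, Lrp2, Dab2 and Lrpap1 fell, 3 of 5, where 54.8% of all genes were called, 27.1% lower and 27.7% higher. Lrp2 fell by 1.53 on the log2 scale, 2.89-fold (standard error 0.139, adjusted p = 0.000420). Lrpap1 fell by 0.81, 1.76-fold (standard error 0.0486, adjusted p = 1.9e-09). Dab2 fell by 0.87, 1.83-fold (standard error 0.232, adjusted p = 0.0233), a call that was lost without wild-type replicate 2 (0.0607), knockout replicate 1 (0.0556) or knockout replicate 2 (0.0545). Cubn at -0.82 (interval -1.76 to 0.13, adjusted p = 0.120) and Amn at -0.72 (-1.57 to 0.12, adjusted p = 0.131) did not pass, although both overexpression libraries lay below both wild-type libraries for each. Amn passed when mutant replicate 1 (adjusted p = 0.0159) or mutant replicate 2 (0.0156) was left out, which enter only the shared estimate of the spread. This comparison and the 2 before it use the same wild-type libraries. Because the genes were chosen on a fall from wild type, differences from these libraries can be tilted toward lower values. That holds for the mutant and the overexpression comparison alike, so their p-values are not free of the choice.

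Mbnl1 overexpression against the Mbnl1 3'UTR mutant takes its difference from no library of the comparison on which the genes were chosen, although those libraries enter the shared estimate of the spread. Here all 5 genes fell, where 52.0% of all genes were called, 25.2% lower and 26.8% higher. Lrp2 fell by 1.53 (2.90-fold, standard error 0.138, adjusted p = 0.000468), Cubn by 1.30 (2.47-fold, 0.335, 0.0329) and Dab2 by 1.22 (2.33-fold, 0.223, 0.00592). Amn fell by 1.13 (2.18-fold, 0.339, 0.0226) and Lrpap1 by 0.89 (1.85-fold, 0.0485, 1.2e-09), and for each gene both overexpression libraries lay below both mutant libraries, beside 74.5% of all genes with libraries apart. The median over all genes tested was -0.00. The calls of Lrp2, Dab2 and Lrpap1 held in each of the 16 other settings tried. The call of Cubn did not hold without 1 of 7 of the 8 libraries, with adjusted p-values from 0.0522 to 0.122, and held only without overexpression replicate 1 (0.0346). It was lost without either wild-type, either knockout or either mutant replicate and without overexpression replicate 2. The call of Amn was lost without knockout replicate 1 (0.0512) or 2 (0.0509), mutant replicate 2 (0.0715) or overexpression replicate 2 (0.117).

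**Figure D2:**
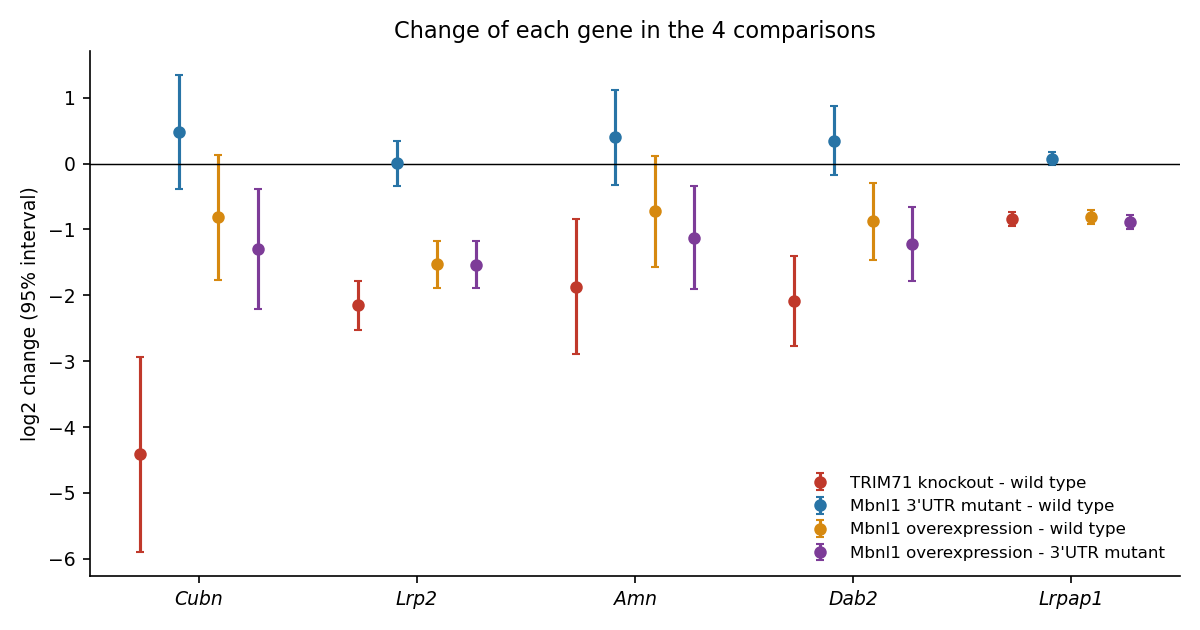
Difference in log2 level of each gene in 4 comparisons, with 95% intervals from the edgeR fit. The genes were chosen on the knockout against wild-type comparison, so its intervals are a description and no test. The mutant against wild-type points lie between 0.00 and 0.49 with intervals across 0, and all 5 overexpression against mutant points lie between -1.53 and -0.89.

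Cubn, Amn, Dab2 and Lrp2 also differed in the same direction between the 2 libraries of a group in wild type, mutant and overexpression. In wild type, replicate 2 exceeded replicate 1 by 0.35 for Cubn, 0.63 for Amn, 0.42 for Dab2 and 0.06 for Lrp2 on the log2 scale. In the mutant, replicate 2 was again the higher, by 0.44, 0.82, 0.34 and 0.21 in the same order. In overexpression it was the lower for all 4, by -0.74, -0.57, -0.48 and -0.36. Of the genes from 1 CPM, 90% lay between -0.21 and 0.21 in wild type, -0.21 and 0.23 in mutant cells and -0.18 and 0.18 with overexpression, so Cubn and Dab2 were outside that range in all 3 groups. Amn was too, but it rests on 52 to 174 reads a library in these groups, so its larger counting error limits what this range says of it. Lrp2 lay within the range in wild type and in mutant cells, and outside it only with overexpression. In the knockout Cubn differed by 1.12 and Amn by 0.29, beside -0.16 to 0.15 for genes from 1 CPM, and Dab2 and Lrp2 lay within it at -0.10 and 0.06. Lrpap1 stayed inside the range in every group, at -0.04, 0.06, 0.16 and -0.00 in wild type, knockout, mutant and overexpression. Among regulators of primitive endoderm, replicate 2 differed in wild type by 0.23 for Gata6, 0.20 for Sox17, 0.30 for Pdgfra and -0.00 for Gata4. In mutant cells these differences were 0.14, 0.26, 0.22 and 0.21, and with overexpression 0.05, -0.56, -0.10 and -0.24. In the knockout they were 0.01, -0.14, -0.43 and 0.22, so their signs matched those of Cubn in some groups and genes and not in others.

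**Figure D3:**
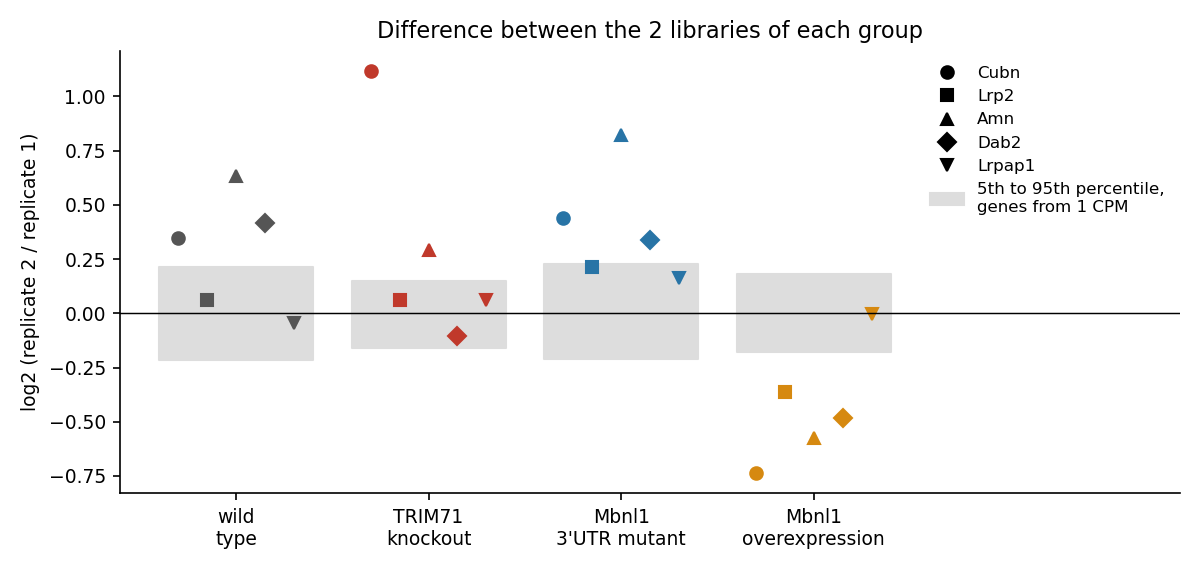
Log2 ratio of replicate 2 to replicate 1 for the 5 genes in each group, with the grey band from the 5th to the 95th percentile of genes at 1 CPM or more. Cubn, Amn and Dab2 lie above the band in wild type and mutant and below it in overexpression, while Lrpap1 lies inside it throughout.

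The markers of primitive endoderm, the cell type best known for this complex in early embryos, followed the receptor genes in part. Gata4, a transcription factor of that lineage, had 7.98 CPM in wild-type cells, 0.709 in knockout cells, 12.1 in mutant cells and 4.94 with overexpression as group means. Of the 8 regulators listed, 7 were lower in the knockout (Gata4, Gata6, Sox17, Sox7, Pdgfra and Foxq1 among them) and Foxa2 was higher, with a median log2 difference of -2.86 against -0.01 over all genes. In the mutant Gata4, Gata6, Sox7 and Pdgfra rose, Foxa2 fell and 3 did not pass, while none of the 5 receptor genes passed there. Passing is not a comparison of sizes. Gata4 rose by 0.60 and Gata6 by 0.72, values inside the 95% intervals of Cubn, Amn and Dab2. Both lie above the intervals of Lrp2 (to 0.34) and Lrpap1 (to 0.18). In overexpression against wild type 6 of the 8 regulators fell, with a median of -0.75, 1 did not pass and Sox7 rose by 0.70. In overexpression against the mutant 7 of 8 fell, with a median of -1.35, and Sox7 at -0.19 did not pass. Over all genes, 20.7% were lower in the knockout, 27.1% with overexpression and 25.2% in overexpression against the mutant. In the mutant 8.02% of all genes were higher and 7.50% lower. The summed level of the 8 regulators was 29.0 to 30.3 CPM in wild-type cells, 22.8 to 23.6 in knockout cells, 40.1 to 45.7 in mutant cells and 19.0 to 20.6 with overexpression. The knockout sum includes Foxa2, which rose from 3.60 to 17.9 CPM there. In such bulk samples, fewer cells of a type and less RNA per cell cannot be told apart, and the part of these cells in the values of the 5 genes was not tested.

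Summed marker lists of other cell types did not follow the full order of the receptor genes across the 4 groups. Neither did the primitive endoderm sum, which was lowest with overexpression. The parietal endoderm sum was, like the receptor genes, highest in the mutant and lowest in the knockout. Afp and Ttr, defining products of visceral endoderm, were under 0.1 CPM in every library, and the 15 genes of that list summed to 86.9 to 90.5 CPM in wild type and to more, 124 CPM, in the knockout libraries. In the mutant they summed to 59.1 to 62.5 CPM and in overexpression to 71.3 to 75.0, led by Tfpi, Cldn6 and Amot. Of 13 tested, 5 were higher and 4 lower in the knockout, 0 and 3 in mutant cells, 3 and 5 with overexpression, and 2 and 4 in overexpression against the mutant. The 12 parietal endoderm genes summed to 1357 CPM in wild-type cells, 1262 to 1264 in knockout cells, 1775 to 1961 in mutant cells and 1448 to 1449 with overexpression. Of the 10 proximal tubule genes, Slc34a1, Slc5a12, Slc22a6, Slc22a8 and Kap were at 0 in all 8 libraries, and 1, the widely expressed Lap3, could be tested. That list summed to 398 to 399 CPM in wild type, 550 to 551 in knockout libraries, 448 in the mutant and 456 to 464 with overexpression, nearly all of it Lap3. The trophectoderm list summed to 143 to 146, 169 to 170, 96.9 to 102 and 115 to 119 CPM in the same group order. The fibroblast and feeder list summed to 6.25 to 6.82, 12.8 to 13.3, 5.67 to 6.04 and 7.87 to 8.54 CPM, with Lum, Dcn, Postn and Fap under 0.1 CPM throughout. Of the parietal, trophectoderm and fibroblast genes tested, 4, 5 and 4 were higher and 4, 4 and 0 lower in the knockout, of 12, 9 and 6. With overexpression against the mutant, 2, 2 and 3 of them were higher and 5, 1 and 0 lower. Over all genes, 24.1% were higher and 20.7% lower in the knockout, and 8.02% and 7.50% in mutant cells. These shares were 27.7% and 27.1% with overexpression, and 26.8% and 25.2% in overexpression against the mutant. The part of any of these cell types in the 5 genes' values was not tested.

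Over the 8 libraries, the genes whose centred log2 profile was nearest to that of Cubn, among 12716 with a mean of at least 1 CPM, were Srgn, Gata4, Klb, Gata6 and Sox17. Their root-mean-square differences from Cubn were 0.405, 0.483, 0.556, 0.600 and 0.694 log2 units. Srgn encodes the proteoglycan serglycin and Klb the co-receptor beta-klotho, while Gata4, Gata6 and Sox17 are endoderm transcription factors. Srgn had 5.99 and 8.75 CPM in wild-type cells, 0.338 and 0.680 in knockout cells, 6.90 and 12.6 in mutant cells and 3.94 and 2.12 with overexpression, so that it shared with Cubn both the group order and the higher library of each group. Cubn itself was 1.10 log2 units from Dab2, 1.18 from Amn and 1.23 from Lrp2. Set against the 12716 genes, these distances ranked 13, 14 and 17 from the nearest. Seen from the other side, Cubn ranked 10745 from Dab2, 11962 from Amn and 11703 from Lrp2. Most genes thus lay nearer to each of them than Cubn did.

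The other 3 formed a closer set. Dab2 was the nearest gene to Amn, at 0.201, followed by Runx1 at 0.309 and Lrp2 at 0.368. Nearest to Dab2 were Runx1 at 0.264, a transcription factor of blood development, and Lrp2 at 0.278, with Amn nearer still at 0.201 but below the 1 CPM minimum. The profile nearest to Lrp2 was that of Tbx15, a T-box transcription factor, at 0.0982, ahead of Ahnak2 at 0.226, Ebf1 at 0.253, Foxi3 at 0.268 and Dab2 at 0.278. Tbx15 had 2.79 and 2.65 CPM in wild-type cells, 0.559 and 0.595 in knockout cells, 2.20 and 2.47 in mutant cells and 0.903 and 0.760 with overexpression. Lrpap1 was given no such list because its group means spanned 0.91 log2 units, under the 1 unit asked for. With a 5 CPM minimum, 2 of the 5 nearest genes were shared for each of Cubn, Lrp2, Amn and Dab2. All these likenesses rest on 8 libraries in 4 groups, include the comparison on which the genes were chosen and carry no p.

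**Figure D4:**
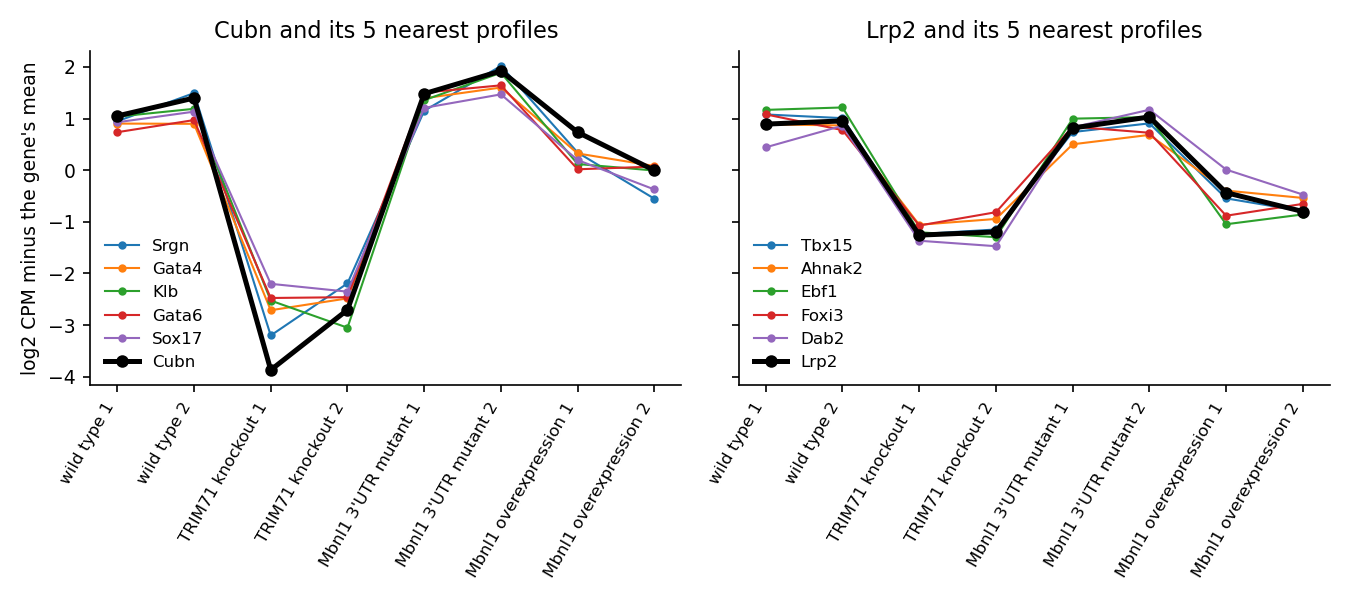
Log2 CPM of Cubn (left) and Lrp2 (right) with their 5 nearest genes in the 8 libraries, each gene centred on its own mean. The Cubn set drops deepest in the knockout, with Cubn lowest in replicate 1, while the Lrp2 set is low in both the knockout and overexpression.

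The rest of the uptake machinery was read from 7 lists that leave out the 5 genes. Of 121 listed genes 111 were tested, of which 38 were higher and 15 lower in the knockout against wild type, 14 and 7 in mutant cells, 37 and 34 with overexpression, and 32 and 40 in overexpression against the mutant. Called shares were thus 47.7%, 18.9%, 64.0% and 64.9%, beside the 44.8%, 15.5%, 54.8% and 52.0% of all genes given above. Their median log2 differences were 0.06, 0.03, 0.01 and -0.01. By direction, 24.1% of all genes were higher and 20.7% lower in the knockout, and 8.02% and 7.50% in mutant cells. These shares were 27.7% and 27.1% with overexpression, and 26.8% and 25.2% in overexpression against the mutant. The counts of each list below stand beside them.

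Among 15 other receptors of the lipoprotein receptor family, 9 were higher and 2 lower in the knockout, and 11 were higher and 1 lower in overexpression against wild type. The shares higher were 60% and 73.3%, beside 24.1% and 27.7% of all genes. Medians were 0.26 and 0.32, beside -0.01 for all genes in both. Sorl1, a sorting receptor of this family, went from 30.2 CPM in wild type to 76.2 in the knockout (log2 1.33) and 54.5 in overexpression (0.85). Lrp1, a close relative of megalin that also uses RAP, went from 31.4 to 37.9 and 53.5 CPM (0.27 and 0.77). Lrp12 rose by 0.66 in the knockout, and Ldlrad4 rose there by 0.46 and fell by 1.16 in overexpression. In the mutant 4 were higher and 1 lower, with 3 calls left without wild-type replicate 1 or 2 and 2 without mutant replicate 1. Against the mutant, overexpression had 10 higher and 2 lower, with a median of 0.26 for a family in which Lrp2 fell by 1.53.

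Of 13 adaptors that bind receptor tails, 5 were higher and 3 lower in the knockout, 5 and 5 in overexpression, 4 and 4 in overexpression against the mutant, and 1 higher in the mutant, Mapk8ip1, a call lost without mutant replicate 1. Dab1, the relative of Dab2 best known in neurons, went from 19.5 CPM in wild type to 12.0 in the knockout (log2 -0.70) and 15.9 in overexpression (-0.30). Gulp1, an adaptor of Lrp1, rose by 0.71 in the knockout and fell by 0.45 in overexpression. Fcho2 fell by 0.43 in the knockout, and Myo6, the motor that moves such vesicles inward, rose by 0.34. Mapk8ip2 (1.33) and Mapk8ip1 (0.94) rose in overexpression.

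The clathrin coat and its AP-2 adaptor complex moved in both directions. Of 24 genes, 8 were higher and 5 lower in the knockout, 4 and 1 in mutant cells, 10 and 6 with overexpression, and 7 and 8 in overexpression against the mutant, with medians of 0.06, 0.04, 0.02 and -0.05. Fcho1, a factor that starts coated pits, rose from 16.1 to 23.4 CPM in the knockout (0.54) and to 26.5 in overexpression (0.72). Amph rose by 0.45 and Epn2 fell by 0.32 in the knockout. The light chain gene Cltb fell from 157 to 96.9 CPM in overexpression (-0.70), and the heavy chain gene Cltc fell by 0.14 in the knockout. In the mutant, 3 of the 5 calls were left without wild-type replicate 1, knockout replicate 1 or 2, or mutant replicate 1, and 9 of the 15 calls between overexpression and mutant were left without overexpression replicate 1.

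Endosome genes that passed in overexpression were lower in all but 1 case. Of 19 tested, 9 fell and 1 rose against wild type, with a median of -0.11, and 13 fell and 1 rose against the mutant, with a median of -0.15. The shares lower were 47.4% and 68.4%, beside 27.1% and 25.2% of all genes. Clcn5, the endosomal chloride-proton exchanger lost in Dent disease of the proximal tubule, had 34.7 CPM in wild type, 24.0 in the mutant (log2 -0.53) and 13.0 in overexpression (-1.42), and 40.3 in the knockout, which did not pass. Rab11a, a recycling GTPase, fell by 0.43 and Vps35, a retromer subunit, by 0.37 in overexpression, while Rab11fip2 rose by 0.42. In the knockout 4 rose, Atp6v0a4 (1.01) and Ehd1 (0.33) among them, and 1 fell, Rab7 (-0.13). That count of 5 was 2 without wild-type replicate 1 or without knockout replicate 1 or 2. In the mutant Clcn5 was the 1 called, with 2 called without wild-type replicate 1 and 3 without mutant replicate 2.

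Of 13 genes of receptor folding and of traffic from and to the endoplasmic reticulum, 5 were higher and 0 lower in the knockout. The share higher was 38.5%, beside 24.1% of all genes, and 20.7% of all genes were lower. Those 5 were Hspa5, a chaperone, and Kdelr1, Kdelr2, Kdelr3 and Mcfd2, which serve that traffic. Counts were 3 and 0 in mutant cells, 6 and 3 with overexpression, and 4 and 4 in overexpression against the mutant. Mesd, the other dedicated chaperone of the family beside RAP, stood at 94.7 CPM in wild type and 94.0 in the knockout (-0.01, adjusted p = 0.837), and rose by 0.10 in overexpression. Kdelr3, a receptor that returns chaperones such as RAP to the endoplasmic reticulum, rose from 14.2 CPM in wild type to 23.1 in the knockout (0.70), 19.0 in mutant cells (0.42) and 51.4 with overexpression (1.86). Pdia3 rose by 0.44 and Pdia4 fell by 0.32 in overexpression. Without knockout replicate 1 or 2, the count in the knockout was 3.

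Of 24 ligands of cubilin and megalin 15 could be tested, and Cblif, Apoh, Ambp and Scgb1a1 were at 0 in all libraries. In the knockout 7 were higher and 3 lower, with a median of 0.43. The share higher was 46.7%, beside 24.1% of all genes, and the share lower was 20%, beside 20.7%. Plau, the urokinase gene, rose from 1.43 CPM to 4.62 in the knockout (1.69), and Apob from 3.58 to 7.41 (1.05), while B2m fell by 0.75. In overexpression 2 rose and 7 fell, with a median of -0.27: Plat fell by 2.39, Apob by 1.62 and Plau by 1.22, and Mdk rose by 0.75. Apoe, the most abundant at 672 CPM in wild type, fell by 0.37 in the knockout and by 0.51 in overexpression. In the mutant 0 rose and 3 fell, Plau (-1.54) and Apob (-0.69) among them, and 5 were called without mutant replicate 2. In overexpression against the mutant 3 rose and 5 fell, a total of 8 that was 5 without mutant replicate 1 and 4 without overexpression replicate 1.

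Genes that handle vitamin B12 inside the cell were called most often between overexpression and mutant, at 58.3%, near the 52.0% of all genes. Of 12, 1 was lower in the knockout, beside 2 called without wild-type replicate 2 or without mutant replicate 1 or 2. In the mutant 2 rose and Abcd4 fell by 0.27, a total of 3 that was 1 without wild-type replicate 1. In overexpression 2 rose and 3 fell, led by Abcc1 (0.43), an exporter of the vitamin, and Mtrr (-0.37), which reactivates methionine synthase. Against the mutant 3 rose and 4 fell. Cd320, the receptor for B12 on transcobalamin, stood at 26.8 CPM in wild type, 26.1 in knockout cells, and passed in no comparison.

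**Figure D5:**
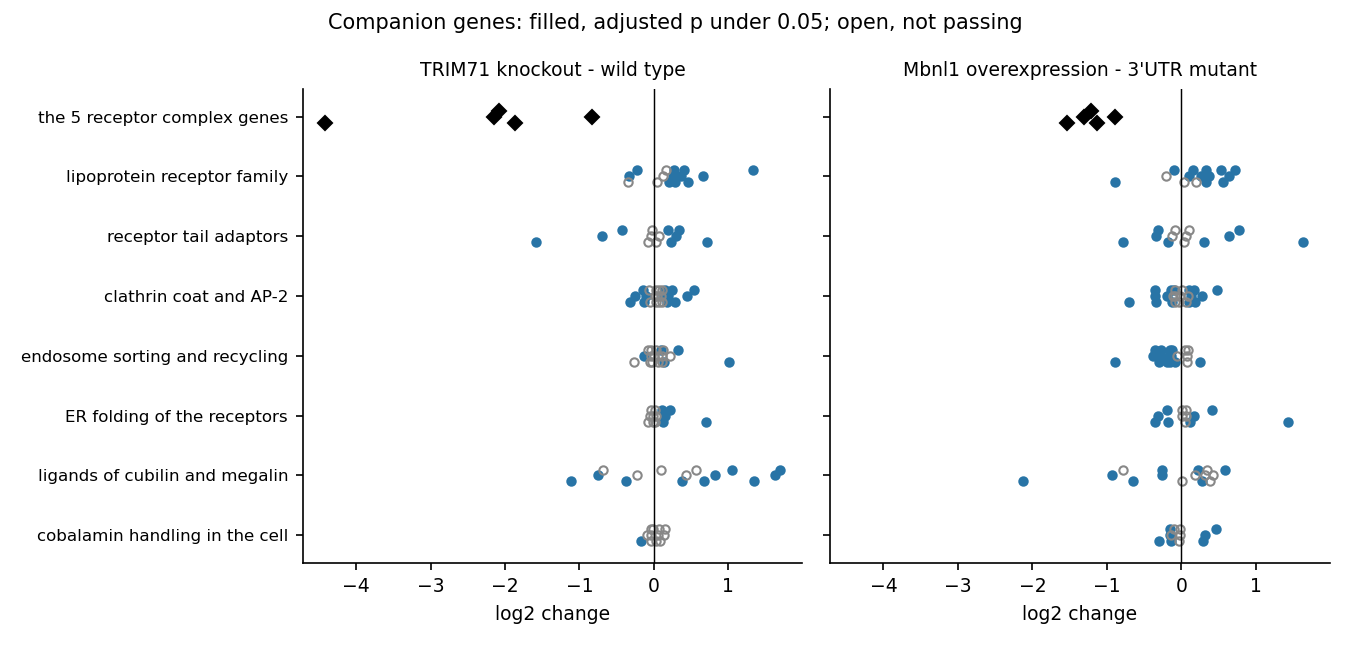
Log2 change of the 5 receptor complex genes (diamonds) and of the genes in 7 companion lists (circles) in 2 comparisons, filled where the adjusted p was under 0.05. The diamonds lie at -0.84 or below on both sides, while most circles lie within 1 unit of 0.

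Both receptor genes are on chromosome 2, where the median over 1498 tested genes was -0.01 in the knockout, -0.00 in mutant cells and 0.32 with overexpression against wild type, beside -0.01, -0.01 and -0.01 for all genes. Lrp2 thus fell in overexpression on a chromosome whose median gene was higher, and Cubn, at -0.82, did not pass. Within 10 Mb of Lrp2 the median over 124 genes was 0.05 in overexpression and 0.00 in the knockout. Within 10 Mb of Cubn the median over 138 genes was -0.31 in overexpression, -0.14 in the mutant and -0.20 in the knockout. In overexpression against the mutant these medians were 0.13 near Lrp2 and -0.19 near Cubn. Among the 4 nearest tested genes on each side of Cubn, Trdmt1, Vim and St8sia6 rose in the knockout and Rsu1, Gm37160 and Gm13270 fell, from -1.40 to 1.73. Gm13270 shares exon bases with Cubn on the opposite strand, and the strand setting of the counts is not known. It went from 0.371 CPM in wild type to 0.173 in the knockout, and Gm37160 from 0.284 to 0.107, both low levels. St8sia6, a sialyltransferase, rose from 0.737 to 2.46 CPM. Of the 8 around Lrp2, 4 fell and 0 rose in the knockout, beside 20.7% lower and 24.1% higher over all genes. Those 4 were Nostrin, Spc25 (-0.12), Gm37666 and Gm38377. Gm37666 and Gm38377 had means of only 0.0915 and 0.298 CPM over the 8 libraries. Nostrin, which encodes a trafficking protein of endothelial nitric oxide synthase, had 0.507 and 0.928 CPM in wild-type cells, 0.116 and 0.0243 in knockout cells, 0.544 and 1.27 in mutant cells and 0.301 and 0.196 with overexpression. Its knockout difference was -3.29 (adjusted p = 0.0187), but knockout replicate 2 lay under the 0.0365 CPM that 3 counts are worth there. As for Cubn, its higher library was replicate 2 in wild type and mutant and replicate 1 in overexpression. In the knockout the 2 genes differed, with replicate 1 the higher for Nostrin and replicate 2 for Cubn. The next genes on the other side, Bbs5, Klhl41, Fastkd1 and Ppig, did not pass in the knockout (0.06 to 0.60).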

How the data were processed

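RNA of 8 libraries in 4 groups was measured. The deposited files hold counts per gene for each library; per the submitters' processing notes the authors used STAR 2.5.0 and the mm10 genome (annotation release and strand setting: not given in the sources used here). Of 43346 identifiers, 42462 matched GENCODE by Ensembl identifier without version. Counts were tested with edgeR 4.0.16 (R 4.3.3): TMM scaling, its default low-count filter, 1 quasi-likelihood fit over the 4 groups with 4 residual degrees of freedom, and Benjamini-Hochberg adjustment over 18055 genes. Profiles used log2 CPM with a prior count of 2. The test was first tested on simulated data. Library totals of 75056306 to 86508533 counts make 3 counts worth 0.0347 to 0.0400 CPM, and precision is otherwise set by having 2 libraries per group. The 5 genes and all lists were chosen with earlier results of these data known. Named companion genes were up to 4 called per list and comparison of largest change, from a mean of 1 CPM and with libraries apart; Apoe, Cltc, Mesd, Cd320 and the 10 Mb windows were chosen after their values were seen, and some genes the rule takes are not reported here. Alternatives were 2 other scalings, 2 other filters, DESeq2 1.42.0, pairwise fits, a replicate block, edgeR's earlier dispersion estimate (chosen after seeing the data) and leaving out each library.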

Additional observations from a re-analysis of the deposited data

How the results depend on the processing

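Of the 444 values of comparisons recomputed under other settings, 412 kept their direction, their side of any threshold or, for counts, a size within 1.5 times. The labels do not say whether same-numbered libraries belong together. Correlations of same-numbered deviations over all genes tested ran from -0.03 to 0.06, and values near 0 cannot show that they do not. With the replicate block, Cubn in overexpression against the mutant was -1.29 (adjusted p = 0.0709), no other call of the 5 genes changed, and 5 ligand genes in place of 3 were called in the mutant. With only the 2 groups compared in the fit, that value was -1.30 (0.114), Amn in overexpression against wild type was -0.71 and passed (0.0268), Dab2 there was -0.86 (0.0570), and 12 companion genes in place of 21 were called in the mutant. With no filter, Dab2 in overexpression against wild type was -0.87 (0.0578) and Amn against the mutant -1.13 (0.0667). Lrp2 in the mutant turned to -0.0104 with library size only and to -0.0064 with genes under 1 CPM left out, a setting that gives Amn no value. The cause was not tested. Leaving out 1 library at a time, ranges were -1.72 to -0.98 for Cubn, -1.48 to -0.65 for Amn in overexpression against the mutant, -1.04 to -0.37 for Amn and -1.13 to -0.65 for Dab2 in overexpression against wild type. In the mutant against wild type they were -0.11 to 0.11 for Lrp2, -0.069 to 0.76 for Amn and -0.0087 to 0.15 for Lrpap1, and 1768 to 3163 genes were called. Of 452 values of lists and profiles, 412 did so. Depth limits Amn and the knockout level of Cubn, which rest on under 180 reads a library.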
